A study of Rattus norvegicus with 77 samples.

Results

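The comparison described here set sperm RNA of rats given HD for 3 months against that of rats given water, at the end of exposure, over every gene that the array names by 1 symbol. There were 39 arrays for it (19 HD and 20 water) of the 77 in the series, 1 rat per array, and 15310 of 29214 probe sets (the probes for 1 transcript) carried 1 gene symbol. The 29 transcripts that the study picked as candidates for follow-up by PCR were set aside, so that the genes and functions described are the others. Counts over all genes and over cell markers still include them. All groups were young adult male Fischer 344 rats, an inbred strain. The HD group drank water with 0.33% HD and the water group drank plain water. Both were killed after 3 months. The HD-recovery and water-recovery groups (20 and 18 arrays) had the same 3 months and then 3 more months of plain water. Sperm were released from punctured cauda epididymides and passed through an ammonium chloride buffer that lyses blood and other somatic cells, so a value stands for sperm RNA together with that of any cells left over. The study judged its sperm pure from microscopy and from the lack of ribosomal RNA peaks.

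HD stands for 2,5-hexanedione, a diketone that the body forms from hexane. It cross-links tubulin and so disturbs the microtubules of Sertoli cells, the nurse cells of the testis that hold germ cells in place, pass fluid and proteins to them and engulf those that die. Spermatids stop transcription when their chromatin is packed by protamines, so the RNA of a mature sperm is mostly what was left from earlier stages. A sperm also sheds most of its cytoplasm at release from the Sertoli cell, and RNA is lost with it. Leukocytes, red blood cells, epididymal epithelium and cells of connective tissue, smooth muscle and vessels are among the other cells that a cauda sample could hold.

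The 3 genes with the smallest p outside the candidates were Ctxn1, Slc10a7 and Rps6ka5, and their promoters are printed because the results below open with them. Each is 300 bases long and ends 50 bases past the gene's start, 5′ to 3′ on the gene's strand, as RefSeq gives it on the rat build GRCr8, and all 3 genes lie on the minus strand. Ctxn1 lies at chr12:7409870-7410169, Slc10a7 at chr19:46311704-46312003 and Rps6ka5 at chr6:125735706-125736005. Capitals mark 4 motifs on either strand. They are the GC box, spelled GGGCGG here, the box named after its letters CCAAT, the cyclic AMP response element, searched as the 8 letters TGACGTCA, and the TATA box, searched only in its form TATAAA.
Ctxn1: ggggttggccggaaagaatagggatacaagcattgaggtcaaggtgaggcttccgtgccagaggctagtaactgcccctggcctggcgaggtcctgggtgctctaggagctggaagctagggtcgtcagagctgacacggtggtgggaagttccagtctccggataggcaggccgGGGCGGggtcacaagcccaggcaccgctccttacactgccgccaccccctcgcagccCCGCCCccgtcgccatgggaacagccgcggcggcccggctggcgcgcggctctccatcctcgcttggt
Slc10a7: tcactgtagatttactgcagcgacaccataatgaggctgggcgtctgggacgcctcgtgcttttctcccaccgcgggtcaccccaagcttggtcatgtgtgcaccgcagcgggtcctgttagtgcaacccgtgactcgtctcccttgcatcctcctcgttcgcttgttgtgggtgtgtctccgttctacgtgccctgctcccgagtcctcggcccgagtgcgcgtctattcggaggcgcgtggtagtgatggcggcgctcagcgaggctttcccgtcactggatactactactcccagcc
Rps6ka5: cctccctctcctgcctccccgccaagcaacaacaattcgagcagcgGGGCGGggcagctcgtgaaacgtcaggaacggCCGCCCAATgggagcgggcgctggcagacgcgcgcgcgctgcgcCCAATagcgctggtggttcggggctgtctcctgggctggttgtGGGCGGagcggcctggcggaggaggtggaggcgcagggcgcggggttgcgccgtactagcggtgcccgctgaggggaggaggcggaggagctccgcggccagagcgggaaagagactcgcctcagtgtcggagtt
The Ctxn1 promoter held 2 GC boxes. In that of Rps6ka5 there were 3 GC boxes and 2 CCAAT boxes, of which 1 of each overlap by a pair of bases. Slc10a7 held none of the 4 motifs. RefSeq promoters could be matched to 52 of the 67 altered genes described below. Of the 52, 26 (50%) held a GC box, against 33.1% of all 33469 RefSeq promoters. The latter were not limited to genes measured on the array, so the sets compared here are unlike. A CCAAT box was found in 17 (32.7% against 37.5%) and a cyclic AMP response element in 2 (3.85% against 1.83%). A TATA box was found in none of the 52, and in 14.2% of all promoters. The median share of G and C was 59% in the 52 and 51.7% in all. These are descriptions of the letters in these windows.

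Over all probe sets with 1 gene symbol, 90 (0.588%) were altered at q under 0.05 (limma with Storey's q-values over all 29214 probe sets). Of these, 85 (0.555%) were lower and 5 (0.0327%) higher in arrays labelled HD. The direction is opposite to that given by the study, and the groups are named here by their labels. The study also measured its candidates by PCR in other rats given HD, set against rats from before exposure. It reports that PCR and its own array results were alike for most candidates, while some went the other way. Which direction is right was not settled from these files. Were the labels turned, every lower and higher value of this comparison would change sides. Outside the candidates there were 67 altered genes among 15282 (0.438%), with 63 lower (0.412%) and 4 higher (0.0262%). Of the 67, 50 could be matched by name to the study's published list of altered transcripts, which came from these same arrays, and 17 could not. The changes were modest. Among the 63 lower genes the fold ranged from 1.16 to 1.9 with a median of 1.33, and 16 were over 1.5-fold. No gene of the 63 separated the groups: the highest HD array always overlapped the lowest water array. For each gene the water median lay above 15 to 19 of the 19 HD arrays, with a median of 18. At an unadjusted p under 0.05 (limma), 922 genes (6.02%) were lower and 570 (3.72%) higher.

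**Figure D1:**
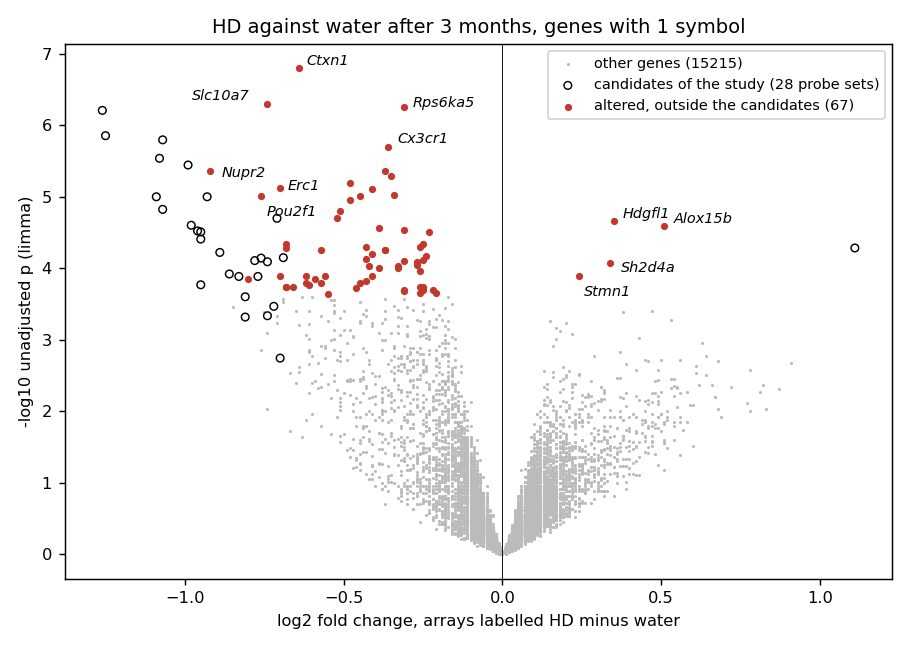
Each point is 1 gene with 1 symbol; the x axis gives the log2 fold change (arrays labelled HD minus arrays labelled water, n = 19 and 20) and the y axis the negative log10 of the unadjusted limma p. The 67 altered genes outside the candidates (red) lie mostly to the left, 63 against 4, while open circles are the 28 candidates with a matched probe set.

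Arrays differed within groups, and this touched every count. Correlated with the other arrays of its group, an array had a median r of 0.83 to 0.977 among HD arrays and of 0.942 to 0.974 among water arrays. By a limit of 3 scaled median absolute deviations, HD replicates 3, 4, 5 and 14 and water replicate 20 stood apart. Without these 5 arrays, 5095 genes were altered in place of 90, with 2732 lower and 2363 higher, so the share of calls that were lower went from 94.4% to 53.6%. Most of those differences were small, since 240 of the 5095 were over 1.5-fold and their median size was 0.21 on the log2 scale. All 90 genes remained altered in that fit and none changed direction, but this is not independent evidence. In that fit 33.3% of all genes passed, and the arrays left out were 4 HD and 1 water. HD replicates 14, 3 and 4 had the highest HD means over the lower genes outside the candidates (8.19, 7.83 and 7.81). Over all genes, the median ratio of the HD SD to the water SD went from 1.25 to 0.849 without these arrays. HD replicate 5 had a mean log2 value of 7.36 over the spermatocyte and spermatogonium markers and of 7.72 over the Sertoli cell markers. In the 15 HD arrays that did not stand apart, these means reached at most 6.19 and 6.85. The part of any of these arrays in the results was not tested.

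Taken over the 63 lower genes, the mean log2 value per array was 7.25, 7.50 and 8.19 (lowest, median and highest) in HD arrays and 7.54, 8.00 and 8.37 in water arrays. HD replicate 14 was the 1 HD array above the water median. It lay below the water median in 10 of the 63 genes, whereas each of the other 18 HD arrays did so in 50 to 63 of them. Without HD replicate 14, 261 genes were altered in place of 90. Removing water replicate 10, 1 of the 3 water arrays with the highest mean over these genes, left 46. The same mean was 7.36, 8.00 and 8.38 in HD-recovery arrays and 7.62, 7.97 and 8.55 in water-recovery arrays.

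**Figure D2:**
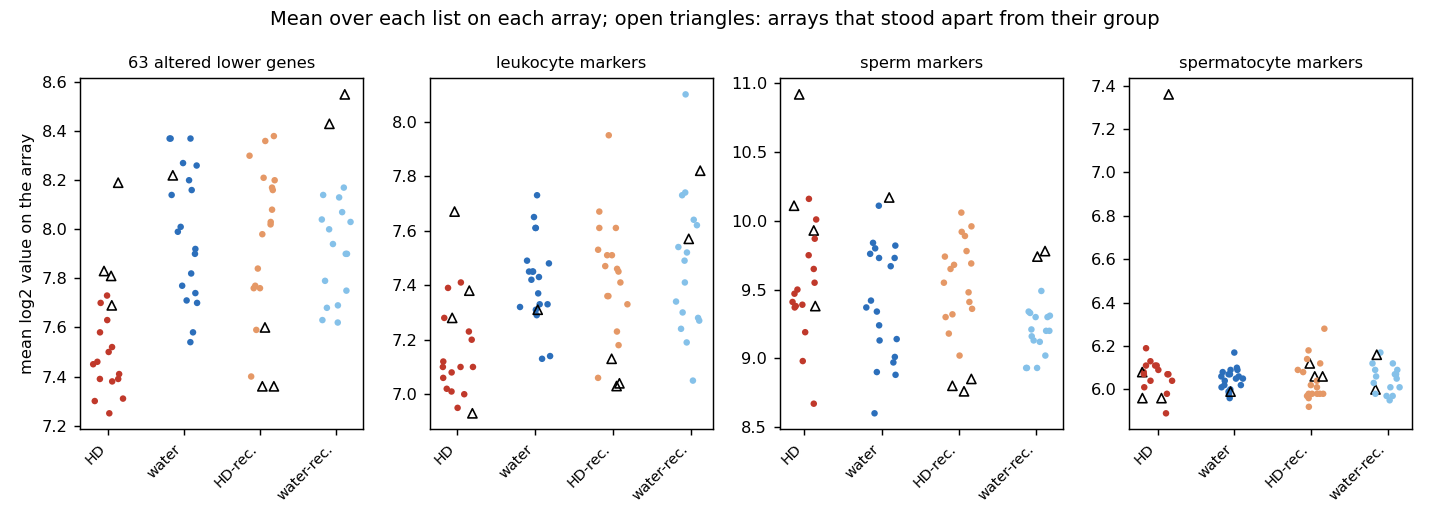
Mean log2 value of 4 gene sets on each of the 77 arrays, by group (x axis), with arrays that stood apart from their group as open triangles. The 63 lower genes sat below the water median of 8.00 on 18 of 19 HD arrays, the triangle at 8.19 is HD replicate 14, and the triangle at 7.36 in the spermatocyte panel is HD replicate 5.

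Ctxn1, which encodes cortexin, a small membrane protein first known from neurons of the cerebral cortex, had the smallest p of all genes outside the candidates. Its log2 value was 7.83, 8.03 and 8.85 (lowest, median and highest) in HD arrays and 8.20, 8.86 and 9.33 in water arrays. Every one of the 19 HD arrays was under the water median, although the ranges overlapped. The log2 fold change was −0.64 (SE 0.10, q = 0.0016 from limma), or 1.55-fold.

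Slc10a7 is a membrane protein of the bile acid carrier family that does not itself carry bile acids. HD arrays ranged from 6.85 to 8.26 with a median of 7.26, and water arrays from 7.01 to 8.69 with a median of 8.00. Its log2 fold change was −0.74 (SE 0.12, q = 0.0020), and 18 of 19 HD arrays were below the water median. A second probe set for the same gene had a like value of −0.63 and fell just outside the threshold (SE 0.16, q = 0.051), so both probe sets of this gene lay in the same direction. Of the 30 measured genes of the SLC10 family and of other anion carriers, Slc10a7 was the 1 that passed.

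Rps6ka5 encodes the kinase MSK1, which MAP kinases switch on and which phosphorylates CREB and histone H3 in the nucleus. Its difference was small: 5.79, 6.12 and 6.35 in HD arrays against 6.08, 6.41 and 6.68 in water arrays. Both of its group medians were under the array medians over all probe sets, 6.51 to 6.77 in HD and 6.66 to 6.76 in water arrays. The same held for Sh2d4a, Med21, Glipr1 and Ahsp, which are described below. All 19 HD arrays were below the water median, with a log2 fold change of −0.31 (SE 0.05, q = 0.0020). It was the 1 altered gene of 38 measured MAP kinases, their activators and the kinases they switch on.

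Nupr2, a small nuclear protein related to the stress-response regulator Nupr1, showed the widest fall among the 67. It went from a water median of 11.50 (10.52 to 12.09) to an HD median of 10.38 (9.34 to 11.69). The log2 fold change was −0.92 (SE 0.17, q = 0.0068), or 1.9-fold, and 18 of 19 HD arrays were under the water median.

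**Figure D3:**
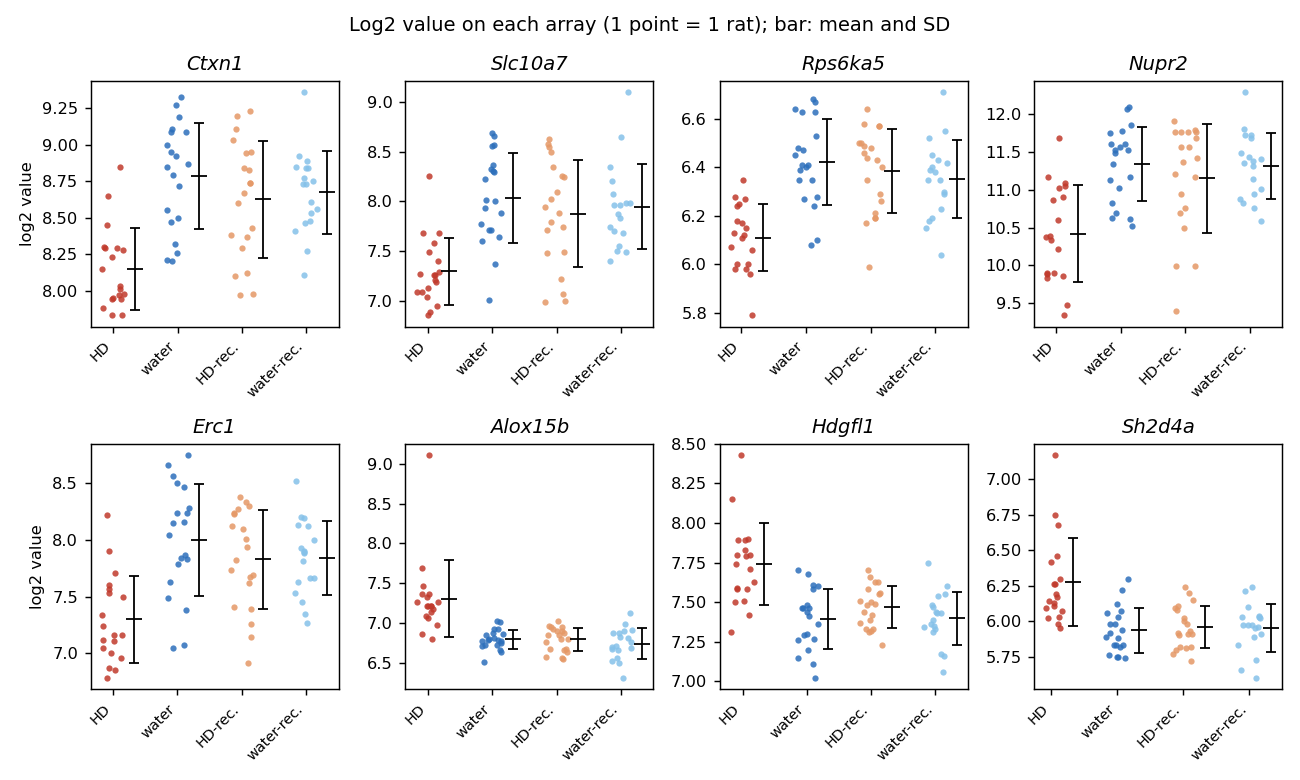
Log2 value (y axis) of 8 altered genes on each array of the 4 groups (x axis), with the mean and SD as a bar to the right. Ctxn1, Slc10a7, Rps6ka5, Nupr2 and Erc1 were lower and Alox15b, Hdgfl1 and Sh2d4a higher in HD than in water arrays, with overlap in each, and the highest Alox15b value, 9.11, is HD replicate 4.

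Erc1, a scaffold that brings secretory vesicles to the plasma membrane, had 6.78, 7.16 and 8.22 in HD arrays and 7.05, 8.10 and 8.75 in water arrays. This was a log2 fold change of −0.70 (SE 0.14, q = 0.0086). Rims2, which acts with ERC proteins where vesicles are released at synapses, was lower by much less (−0.25, q = 0.043). These were 2 of 48 measured genes of membrane traffic and Rab control, and none was higher. Wdr7, a partner of the vacuolar proton pump that acidifies endosomes and the acrosome, had HD arrays from 6.77 to 7.89 around 7.14 and water arrays from 7.09 to 8.26 around 7.73. With a log2 fold change of −0.48 (SE 0.10, q = 0.0097) it was the 1 altered of 26 genes of that pump. Ptar1, a subunit of an enzyme that attaches geranylgeranyl lipid to proteins, had −0.37 (SE 0.07, q = 0.0068), the 1 altered of 14 prenylation genes. Tmem192, a protein of the lysosome membrane, had −0.68 (SE 0.15, q = 0.022).

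Acer1, a ceramidase that splits ceramide into sphingosine and a fatty acid, had 5.97, 6.35 and 7.09 in HD arrays and 6.33, 6.85 and 7.49 in water arrays. Its log2 fold change was −0.48 (SE 0.09, q = 0.0082), and of 27 sphingolipid genes it was the 1 that passed. Alg9, a mannosyltransferase that builds the dolichol-linked sugar for N-glycosylation, gave −0.41 on the log2 scale (SE 0.08, q = 0.0086). It too was the 1 altered of its list, which held 34 genes. Txndc11, a thioredoxin-like protein of the reticulum, had −0.37 (SE 0.08, q = 0.023). This gene could not be matched to the study's list, and 15 of 19 HD arrays were under the water median.

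Lpar6, a receptor for lysophosphatidic acid, had 6.65, 7.23 and 7.98 in HD arrays and 7.11, 7.87 and 8.44 in water arrays (log2 fold change −0.52, SE 0.11, q = 0.014). Among 29 lysophospholipid and nucleotide receptors it was the 1 that passed. Of 59 voltage-gated channel subunits, 2 were lower. They were Cacng7, a gamma subunit of the calcium channel family (−0.34, SE 0.07, q = 0.0092), and Kcng1, a potassium channel subunit that is silent on its own (−0.43, SE 0.10, q = 0.027). For both, the water median was above all 19 HD arrays. Tmeff1, a membrane protein with follistatin-like domains, had −0.43 (q = 0.022), and Gpr180, a membrane protein of the G protein-coupled receptor class, had −0.43 (q = 0.039).

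Axl, a receptor by which Sertoli cells and macrophages take up dying cells, had HD arrays from 6.66 to 7.21 around 6.90 and water arrays from 6.97 to 7.51 around 7.14. The log2 fold change was −0.23 (SE 0.05, q = 0.018), with 16 of 19 HD arrays below the water median, and 21 of the 22 measured genes of apoptotic cell uptake did not pass. C3, the central protein of the complement cascade, had −0.35 (SE 0.07, q = 0.0068), the 1 altered of 29 complement genes. Igf1, a growth factor made by Sertoli and Leydig cells among others, had −0.42 (SE 0.10, q = 0.029). Its highest water array, at 9.06, stood well above the water median of 7.64, and its call was lost in 10 of the 39 fits that left out 1 array. Stk4, the Hippo pathway kinase MST1, had −0.66 (SE 0.16, q = 0.043), and that call was lost in 24 of the 39.

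Pou2f1, the transcription factor Oct-1, had 6.94, 7.78 and 9.07 in HD arrays and 7.74, 8.73 and 9.41 in water arrays, a log2 fold change of −0.76 (SE 0.15, q = 0.0092). Klf12, a repressor of the Krüppel-like family, had −0.31 (SE 0.07, q = 0.018). These were the 2 altered of 35 Krüppel-like, POU and Eya-family factors. Elof1, an elongation factor of RNA polymerase II, had −0.59 (SE 0.14, q = 0.036), and Snapc1, a subunit of the complex that starts transcription of small nuclear RNA genes, −0.24 (SE 0.05, q = 0.026). They were 2 of 43 measured genes of elongation and small nuclear RNA transcription. Ubn2, of the complex that places the histone variant H3.3, had −0.70 (SE 0.17, q = 0.036), the 1 altered of 35 Polycomb and histone chaperone genes. Another 4 regulators outside these lists could not be matched to the study's list. They were Med21, a subunit of the Mediator complex (−0.41, q = 0.036), Sox6, a transcription factor made in spermatids (−0.68, q = 0.043), Thap7, a repressor with a zinc finger (−0.31, q = 0.046), and Prcc, a nuclear protein known from fusions in renal carcinoma (−0.25, q = 0.022). Upf2, a factor of nonsense-mediated RNA decay, was also outside that list, with HD arrays from 8.16 to 10.01 around 8.93 and water arrays from 8.54 to 10.14 around 9.66 (−0.62, SE 0.15, q = 0.041).

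Armc2, which is needed to build the sperm axoneme, had −0.39 (SE 0.08, q = 0.017) by 1 of its 3 probe sets. The others gave −0.45 (q = 0.47) and −0.10 (q = 0.83), so the 3 probe sets disagreed on the call. Odf1, of the outer dense fibres that stiffen the tail, lay near the top of the array's scale at 13.43, 13.88 and 14.17 in HD arrays and 13.84, 14.11 and 14.21 in water arrays. With a log2 fold change of −0.22 (SE 0.05, q = 0.044), 18 of 19 HD arrays were below the water median. Dnaaf4, an assembly factor of dynein arms, had −0.25 (q = 0.045), and Nek4, a kinase tied to cilia, had −0.26 (q = 0.043), the 1 altered of 8 NIMA-related kinases. Ppp1r9a, the actin-binding protein neurabin, had −0.57 (SE 0.13, q = 0.023), the 1 altered of 35 genes of actin nucleation.

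Nars2, which charges the mitochondrial transfer RNA for asparagine, had −0.26 (SE 0.06, q = 0.022) and was the 1 altered of 16 such genes. Pcca, a subunit of propionyl-CoA carboxylase, had −0.31 (SE 0.07, q = 0.044) and was the 1 altered of 23 genes that break down branched-chain amino acids and propionate. The 3 altered genes nearest to the threshold were Tmem116 (log2 fold change −0.21, q = 0.047), Gbp5 (−0.26, q = 0.047) and Dnajc15 (−0.55, q = 0.048). Of the 39 fits that left out 1 array, the call was lost in 26 for Odf1, Sox6, Thap7, Pcca and Dnajc15, in 25 for Rims2 and in 24 for Upf2, Dnaaf4, Fcer1g, Tmem116 and Gbp5. It was lost in 23 for Gpr180 and Cpvl, in 22 for Nek4, in 21 for Ubn2 and Cd4, in 20 for Med21, in 19 for Elof1 and in 18 for Lpxn. Just past the threshold, beside the second probe set of Slc10a7, were Zfat, a zinc finger protein of lymphocytes, at −0.17 (q = 0.051) and Nup62cl at −0.60 (q = 0.051).

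Outside the candidates, 4 genes were higher in HD arrays. Alox15b, a lipoxygenase that oxidizes arachidonic acid, had 6.80, 7.22 and 9.11 in HD arrays and 6.51, 6.79 and 7.02 in water arrays. All 19 HD arrays lay above the water median, and the log2 fold change was 0.51 (SE 0.11, q = 0.017). HD replicate 4, at 9.11, and HD replicate 14, at 7.69, were its highest arrays and both stood apart. Its value was 0.38 when the arrays that stood apart were left out (q = 5.4e-05). Hdgfl1, a relative of hepatoma-derived growth factor found in testis, had 7.31, 7.74 and 8.43 in HD arrays against 7.02, 7.43 and 7.70 (0.35, SE 0.07, q = 0.015). Sh2d4a, an adaptor with an SH2 domain, had 5.95, 6.17 and 7.17 in HD arrays against 5.74, 5.91 and 6.30 in water arrays (0.34, SE 0.08, q = 0.028). Its 3 highest HD arrays were replicates 4, 5 and 14, all of which stood apart, and leaving out every array that stood apart gave 0.21 (q = 0.0041). Stmn1, the microtubule-destabilizing protein stathmin, had the smallest increase, 0.24 (SE 0.06, q = 0.036), with 15 of 19 HD arrays above the water median. Its call was lost in 21 of the 39 fits that left out 1 array, and that of Sh2d4a in 7. Those of Alox15b and Hdgfl1 were kept in all 39.

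Markers of leukocytes were among those lower in HD arrays, and several of them are themselves among the 63 lower genes. Of 33 measured leukocyte and macrophage markers, 5 (15.2%, against 0.588% of all genes) were lower and 28 did not pass. None was higher, and 19 of the 33 were lower at an unadjusted p under 0.05 (limma), against 6.02% of all genes. The mean log2 value over the 33 was 6.93, 7.10 and 7.67 in HD arrays and 7.13, 7.42 and 7.73 in water arrays. This mean lay below the water median on 18 of 19 HD arrays, and so did the means of the red blood cell and fibroblast markers. Outside the candidates, the altered markers were Cx3cr1 and Ccr2, chemokine receptors of monocytes, Fcer1g, a signalling chain of Fc receptors, and Cd4. Cx3cr1 had the smallest p of these, with 7.40, 7.72 and 8.21 in HD arrays against 7.78, 8.08 and 8.72 (log2 fold change −0.36, q = 0.0048), and Ccr2 had −0.45 (q = 0.0092). Cd79b of B cells (0.03, q = 0.98), Cd14 of monocytes (0.04, q = 0.98) and S100a8 of neutrophils (0.01, q = 0.99) were among those that did not pass. When the arrays that stood apart were left out, 19 of the 33 were lower and none was higher. In that fit 17.8% of all genes were lower and 15.4% higher. Gimap4, a lymphocyte GTPase that is not in the marker list, had −0.51 (SE 0.10, q = 0.013), with all 19 HD arrays below the water median. As labelled, fewer leukocytes, less RNA per leukocyte and a larger share of sperm RNA in HD samples cannot be told apart in bulk RNA. With the labels turned the leukocyte markers would be the higher ones in HD.

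Several altered genes that could not be matched to the study's list are known from blood cells. They were Cd5 of T cells (−0.27, q = 0.029), Lpxn, an adhesion adaptor of leukocytes (−0.26, q = 0.034), Cpvl, a carboxypeptidase of macrophages (−0.61, q = 0.042), Epsti1, induced by interferon (−0.31, q = 0.027), Glipr1, a secreted-type protein of myeloid and other cells (−0.27, q = 0.027), and Ahsp, the chaperone of alpha globin in red blood cells (−0.25, q = 0.027). Ahsp was the 1 altered of 8 red blood cell markers, whose mean was 6.49, 6.91 and 7.25 in HD arrays and 6.83, 7.13 and 7.32 in water arrays. Among 13 fibroblast markers, decorin (Dcn), a matrix proteoglycan, was the 1 altered (−1.09, q = 0.0092). Dcn is itself a candidate of the study and so is not among the 67 genes. No marker passed among 14 of Sertoli cells, 7 of Leydig cells, 22 of the epididymal epithelium, 13 of spermatocytes and spermatogonia and 11 of smooth muscle and endothelium (limma). At an unadjusted p under 0.05 (limma), where 6.02% of all genes were lower and 3.72% higher, 3 epididymal markers were lower and 2 higher. Of the spermatocyte and spermatogonium markers 1 was lower and 2 higher, and no Sertoli, Leydig, smooth muscle or endothelium marker passed this limit. In HD arrays the median level was 6.76 for Sertoli, 6.64 for Leydig and 6.66 for smooth muscle and endothelium markers. These lie within the range of the array medians, and that of spermatocyte and spermatogonium markers, 6.07, lies below it. Low signal could hide differences in these lists. Without the arrays that stood apart, 9 epididymal markers were lower and 2 higher at q under 0.05. Of 28 sperm and spermatid markers Odf1 was the 1 altered, and their median log2 fold change was 0.27. At an unadjusted p under 0.05, 12 of the 28 were higher and 7 lower, and with the arrays that stood apart left out 7 were higher and 7 lower at q under 0.05. In that last fit 15.4% of all genes were higher and 17.8% lower. The part that leukocyte or blood RNA has in the other differences was not tested.

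The functional lists together held 736 measured genes, of which 22 (2.99%) were lower, against 0.555% of all genes, and none was higher. All 22 are in the study's own list from these arrays, and the lists were drawn up around its functions. Neither the excess over all genes nor the direction is therefore independent evidence. The same holds for the count of altered members given above for each list. Of the 25 lists, 14 held 1 altered gene, 4 held a pair and 7 held none. Lists were not tested as wholes. The 736 had a median log2 fold change of −0.01, beside 0.01 for all genes, and list medians ran from −0.08 to 0.02. In the lists with no altered gene, the member with the smallest p was Krt19, a keratin of epithelia, among intermediate filaments (0.38, q = 0.064), Ptprk among receptor tyrosine phosphatases (−0.33, q = 0.069), Fmo2, a flavin monooxygenase, among detoxification enzymes (−0.23, q = 0.076), and Gli2, a transcription factor of hedgehog signalling (−0.22, q = 0.082). The others were Mnat1, a subunit of the repair factor TFIIH, in nucleotide excision repair (−0.37, q = 0.10), Sppl2a among intramembrane proteases (−0.21, q = 0.26) and Cetn3, a centrin, among EF-hand calcium sensors (0.25, q = 0.36).

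Without the arrays that stood apart, where 17.8% of all genes were lower and 15.4% higher, the counts of lower and higher members were unequal in several lists. This is given with no test. Actin nucleators had 19 lower and 1 higher of 35, dolichol and N-glycosylation genes 15 and 1 of 34, and genes of elongation and small nuclear RNA transcription 16 and 2 of 43. Polycomb and histone chaperone genes had 14 and 2 of 35, MAP kinases and their partners 13 and 1 of 38, and sphingolipid genes 11 and 1 of 27. Voltage-gated channels had 3 lower and 14 higher of 59, and the vacuolar proton pump 9 and 1 of 26. Intermediate filaments, among them the neurofilaments that HD cross-links in nerves, had 0 lower and 1 higher of 28. Detoxification enzymes had 13 and 10 of 54.

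**Figure D4:**
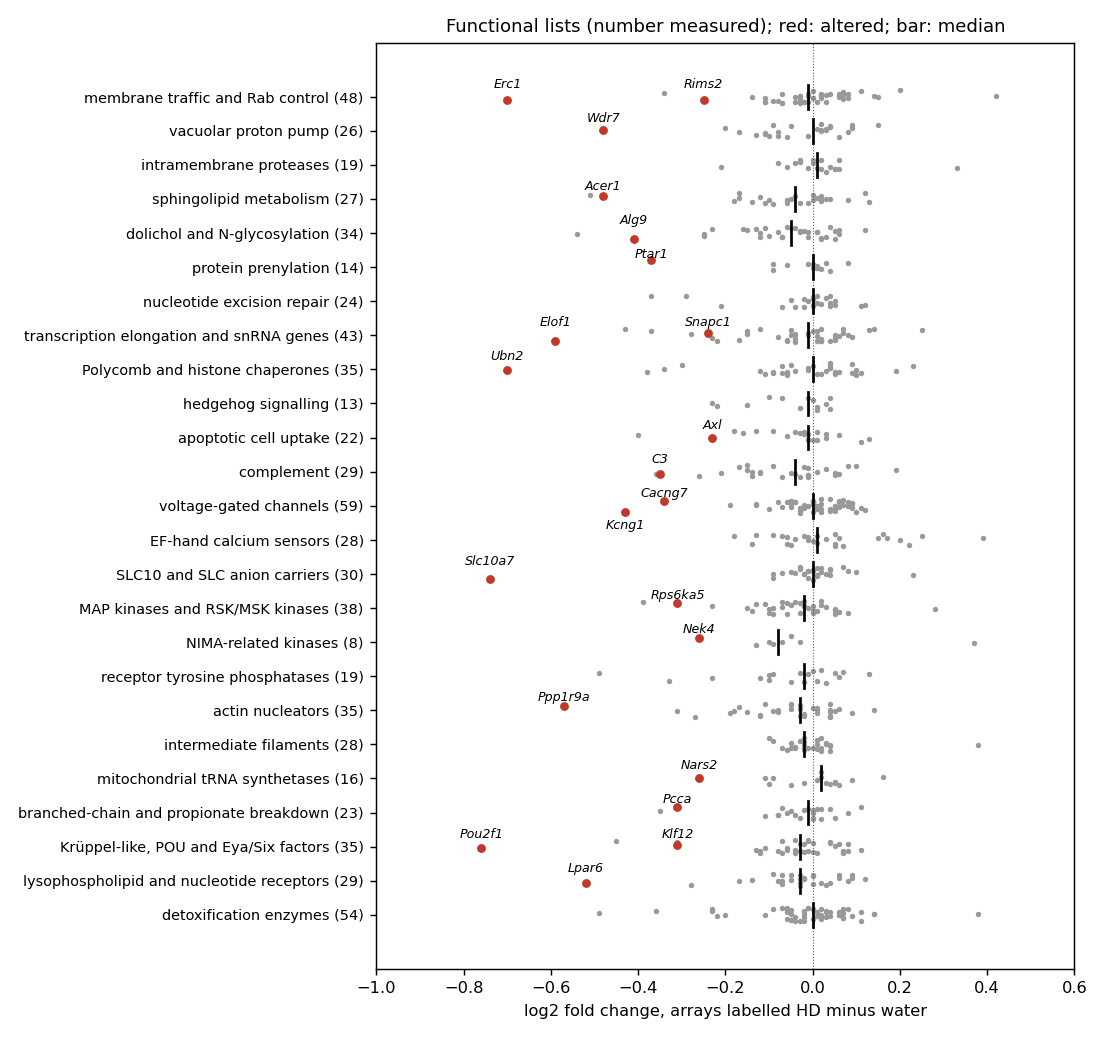
Log2 fold change (x axis, arrays labelled HD minus water) of every measured member of the 25 functional lists (y axis, number measured in brackets), with altered genes in red and the list's median as a bar. Each list holds 0 to 2 altered genes, all of them lower, and the medians lie between −0.08 and 0.02.

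The labels number the rats 1 to 20 in each group without saying whether a number range marks a batch. Within replicates 1 to 10 (9 HD and 10 water arrays), all 67 genes outside the candidates kept their direction, and the 63 lower genes had a median log2 fold change of −0.53. Within replicates 11 to 20 (10 and 10 arrays) all 67 again kept their direction, with a median of −0.31, and 55 of them had an unadjusted p under 0.05. These ranges are parts of the arrays that chose the genes, so the direction is not independent evidence. Across all genes with 1 symbol, 22 were altered in the first range and 0 in the second (limma), with 1357 and 475 at an unadjusted p under 0.05. Ccr2 had −0.62 and −0.31 in the 2 ranges, Cx3cr1 −0.55 and −0.18, C3 −0.53 and −0.18, and Igf1 −0.68 and −0.18. Pou2f1 (−0.81 and −0.69), Cacng7 (−0.35 and −0.33) and Elof1 (−0.59 and −0.57) were closer in both. The difference between ranges was not tested.

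**Figure D5:**
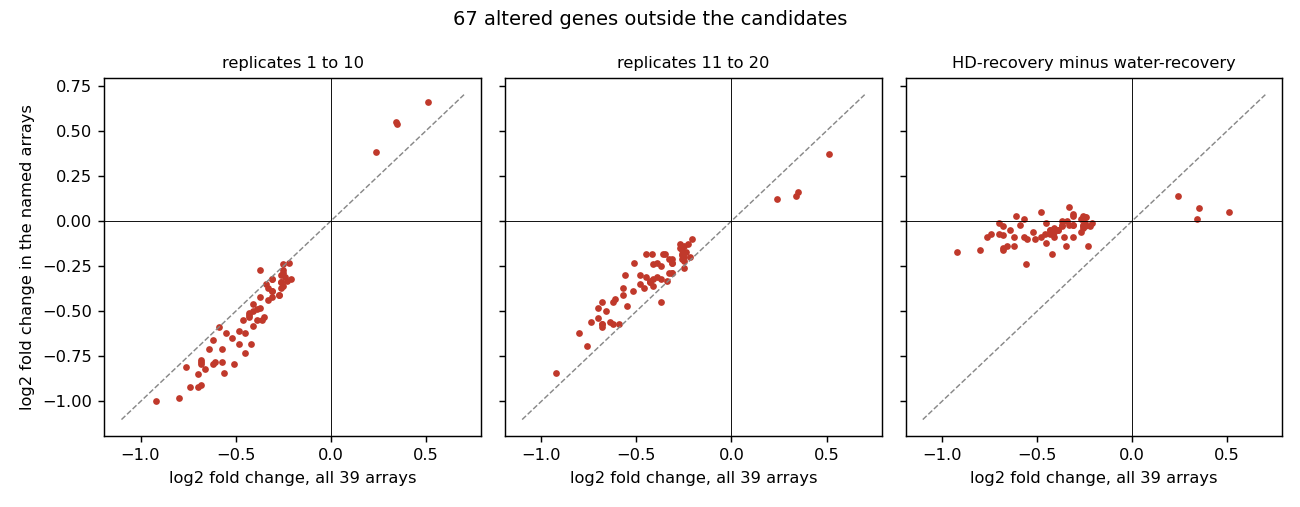
Each point is 1 of the 67 altered genes outside the candidates; the x axis is its log2 fold change over all 39 arrays and the y axis that in replicates 1 to 10, in replicates 11 to 20 or between the recovery groups, with a dashed line where both are equal. The points keep their sign in both replicate ranges, whose arrays are part of the 39, and lie between −0.24 and 0.14 in the recovery groups.

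After recovery no gene was altered (limma, n = 20 and 18 arrays, smallest q 0.72). Of 15310 genes, 780 had an unadjusted p under 0.05 (limma), about the share that this limit passes when nothing differs. Of the 67 genes, 2 were among the 780, Igf1 (−0.18, p = 0.031) and Stmn1 (0.14, p = 0.013). The log2 fold changes of the 67 lay between −0.24 and 0.14 in recovery arrays, and 53 were within 0.1 of 0. The direction was that of the 3-month comparison for 55 of the 67 (82.1%), beside 52.5% of all genes. The lower genes moved together across arrays, so their signs are not separate observations and the share is a description. Their mean was 7.92 ± 0.33 (SD, n = 20) in HD-recovery and 7.97 ± 0.26 (SD, n = 18) in water-recovery arrays. Ctxn1 had 8.63 ± 0.40 (SD, n = 20) in HD-recovery and 8.67 ± 0.28 (SD, n = 18) in water-recovery arrays, and Slc10a7 7.88 ± 0.54 and 7.94 ± 0.43. The HD group had the lowest mean of the 4 groups for all 63 lower genes and the highest for all 4 higher genes, as the choice of genes favours. When the 3-month effect was tested against that after recovery, no gene passed (limma interaction term, smallest q 0.46), and 573 genes (3.74%) had an unadjusted p under 0.05, 59 of the 67 among them. The smallest of these p-values in the 67 was that of Rps6ka5 (interaction −0.35, SE 0.08, q = 0.46). The 3-month arrays that chose the 67 enter this term, so the 59 are a description. With the 10 arrays of the 4 groups that stood apart left out, 9134 genes passed this test in place of 0. The arrays removed were uneven: 4 HD against 1 water at 3 months, and 3 against 2 after recovery. Over all genes, the median ratio of the HD SD to the water SD at 3 months went from 1.25 to 0.849. What this removal by itself adds to the 9134 was not tested, so the count is no measure of an effect particular to 3 months.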

How the data were processed

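RNA of 77 sperm samples was measured on Affymetrix Rat Gene 1.0 ST arrays. The authors deposited 1 table of log2 values per probe set (2.51 to 14.63), normalized by steps not given in the sources used here. This scale was read from the values and no column was left out. Genes were named from the platform annotation: 15310 probe sets carried 1 symbol, 323 several and 13581 none, and 15279 of the 15310 matched RefSeq by gene identifier. Following the study's methods, HD and water arrays were compared in limma 3.58.1 (R 4.3.3, no covariate) over all 29214 probe sets, two-sided, with Storey's q-values (estimated null share 0.995), and altered means q under 0.05. Scripts were tested on simulated data. A log2 fold change is the HD mean minus the water mean. The number of arrays limits the precision. Each array is 1 rat. Array levels are means over a list's log2 values.

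The candidates, lists and markers were chosen with earlier results of these data known. Genes named were the 25 altered genes outside the candidates with the smallest p, every higher one, every one in a functional list or not matched by name to the study's list (81 of its 108 names were matched), the 3 on each side of the threshold, the smallest-p member of each list with no altered gene, and markers. Alternatives were other adjustment, scaling, weights, filter, samples, replicate terms and leaving out each array.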

Additional observations from a re-analysis of the deposited data

How the results depend on the processing

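The main fit gave 90 altered genes (5 higher, 85 lower, 39 over 1.5-fold), and none of the 90 reversed under any alternative. Benjamini-Hochberg adjustment gave the same counts. With array medians centred there were 40 (3 higher, 37 lower, 20 over 1.5-fold), after quantile normalization 243 (9, 234 and 68), with all 4 groups in 1 fit 147 (33, 114 and 49), with array weights 3156 (1309, 1847 and 197), with the arrays that stood apart removed 5095 (2363, 2732 and 240) and with the filter on low values 148 (9, 139 and 54). Replicates 1 to 10 alone gave 22 (0 higher, 22 lower, 15 over 1.5-fold) and replicates 11 to 20 alone 0 of each (limma, 475 genes at an unadjusted p under 0.05), from fewer arrays each. The share of calls that were lower was 77.6% with all 4 groups, 58.5% with array weights and 53.6% with the arrays that stood apart removed. The cause of these differences was not tested. Leaving out each array in turn gave 46 to 261 altered genes, 3 to 12 higher, 43 to 253 lower and 22 to 80 over 1.5-fold. The number rose by over 1.5 times without HD replicates 3 (167), 4 (148), 5 (214) or 14 (261) and water replicates 12 (209) or 15 (168), and fell as far without HD replicates 2 (50), 7 (50), 8 (58), 9 (57), 11 (58), 12 (54) or 16 (54) and water replicates 2 (53), 3 (48), 4 (53), 7 (50), 9 (49), 10 (46), 13 (51), 19 (58) or 20 (57). Of the 67 genes outside the candidates, 29 were altered in all 39 of these fits and 24 lost the call in more fits than not. The interaction gave 0 altered genes, 0 after quantile normalization and 9134 with the arrays that stood apart removed. The cause of that rise was not tested. Replicate numbers are shared by HD and water arrays, and the labels do not say whether a number marks a pair. Over 19 numbers the correlation of deviations ran from −0.58 to 0.65, and 8 exceeded 0.1. The median was 0.03, beside 0 for arrays of unlike numbers. With so wide a range this does not settle whether the numbers pair the arrays. With the replicate block there were 106 altered genes (4 higher, 102 lower, 48 over 1.5-fold), 73 of them among the 90, and with the number range as a covariate 104.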
